A study of Mus musculus with 18 samples.

Results

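The comparison sets the right ventricle (RV) of mouse hearts kept cold for 8 h against the RV of hearts that were not stored, both after 1 h of reperfusion outside the body. It uses 6 of the 18 libraries of the series, chosen by ventricle and storage time in the labels. Its members are all genes that passed a filter on counts, 14622 of the 34989 genes with a transcript in the files. No gene entered the test by its change. The gene lists below, however, were chosen with earlier results of these data known, so their counts only describe them. Most single genes are named by a rule that uses the size of change or p. Hearts of mice, C57B/L6 and 12 weeks old by the labels although the paper states a younger age, were flushed with histidine-tryptophan-ketoglutarate solution, a fluid that stops and preserves the heart, and kept ice-cold for 0, 4 or 8 h. Each was then perfused with warm Krebs buffer for 1 h, and its left ventricle (LV) and RV were frozen. Total RNA gave 3 libraries per group, and the 2 ventricles and 3 storage times make 6 groups. The question is which transcripts of the RV differ when a heart reperfused after long cold storage, as a donor heart is, is set against a heart reperfused at once.

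Several limits follow from the design. Hearts of 0 h were perfused as well, so what perfusion alone changes is on both sides of the comparison. The labels do not give sex, and the paper used mice of both sexes. They also do not say whether each library comes from a separate animal, so a p-value here measures the spread between these libraries. All libraries are of whole ventricle, and fewer cells of a type cannot be told apart from less RNA in each such cell.

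Estimated counts over all transcripts, with or without a matched gene, reached 31309284, 26792741 and 29943848 in RV 0 h replicates 1, 2 and 3. In RV 8 h replicates 1, 2 and 3 they reached 32446175, 24832857 and 28792181. Values of single libraries are counts scaled to library size (CPM) in the order of replicates 1, 2 and 3, with n = 3 libraries in each group, and SE is the standard error of a log2 fold change. Levels of different genes are compared only in TPM, which divide by transcript length before scaling. The most abundant gene of a list, or the one said to lead it, has the highest mean TPM over the 6 libraries. Mitochondrially encoded genes took 22.7, 26.5 and 32.6% of the counts at 0 h and 34.2, 33.6 and 33.3% at 8 h, higher in all 3 libraries of 8 h (exact permutation p = 0.1, the smallest that 3 against 3 can give). The tissue is ventricle by its markers: the 8 cardiomyocyte genes, led by Myh6, sum to 56005, 46377 and 47213 TPM at 0 h and 34304, 36465 and 30925 TPM at 8 h, whereas 7 atrial genes sum to 797, 615 and 199.9 and 1213, 199.8 and 313 TPM. None of the 8 cardiomyocyte markers was called, although their sum is lower at 8 h in all 3 libraries (exact permutation p = 0.1). The mitochondrially encoded genes, with 375734, 440765 and 470881 TPM at 0 h and 501311, 507916 and 459361 TPM at 8 h, share the same scale. So do the 63 tested unprocessed pseudogenes, with 23871, 27053 and 54910 TPM at 0 h and 41903, 39179 and 99483 TPM at 8 h. TPM are shares of a library, so a larger share for some genes lowers the sums of others. That limit holds for every summed TPM below.

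RV 8 h replicate 3 stands apart from the other libraries. Its score on the first principal component of all 9 RV libraries, which holds 52.5% of the variance, is 97.7, against 29.6 and 15.5 for the other libraries of 8 h and -53.2, -64.6 and -56 for those of 0 h. Its log2 CPM correlate with those of replicates 1 and 2 at 0.942 and 0.934, whereas replicates 1 and 2 correlate at 0.977. Retained introns took 1.82, 1.63 and 2.89% of the counts of the 3 libraries of 8 h and 1.95, 2 and 2.3% at 0 h. Of the 1896 genes called higher at 8 h, replicate 3 is the highest library of 8 h for 1405 (74.1%), and it is the lowest for 490 (63.7%) of the 769 called lower. Transcripts of Y-linked genes are low in RV 0 h replicate 2 and in RV 8 h replicate 3, with summed TPM of 73.2, 2.3 and 57 at 0 h and 50.8, 57.8 and 3.27 at 8 h, and none of the 4 was called. Among the hearts that were not stored, RV 0 h replicate 1 is the highest library for 980 (51.7%) of the genes called higher and the lowest for 549 (71.4%) of those called lower. Where the fold change of a called gene (not its log2 value) moves by over 1.5 times without RV 8 h replicate 3, the value without it is given with the gene. All such values are log2 fold changes. Values that move as far without RV 0 h replicate 1 become 6.68 for Adamts4, 3.25 for Arntl, 2.94 for Asns, 3.70 for Birc3, 3.87 for Ccl2, 4.05 for Cdkn1a, 3.69 for Csrnp1, 3.31 for Cxcl1, 7.60 for Fgf23, 5.37 for Fosl1, 3.40 for Gadd45b, 4.07 for Icam1, 3.65 for Il10, 5.62 for Lif, 2.65 for Nfkbia, 3.66 for Nfkbie, 4.01 for Nod2, 3.86 for Olfr1033, 4.73 for Plaur, 6.43 for Selp, 4.11 for Thbs1, and without RV 0 h replicate 3 -0.65 for Ccr2, 9.46 for Cxcl11 and 6.93 for Serpina3g.

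Cold slows metabolism but does not stop it, and a stored heart loses ATP while calcium, protons and reduced metabolites build up. Return of warmth and oxygen then drives a burst of oxidants, and damaged cells release nucleic acids and proteins that innate sensors read as danger. Those sensors act through NF-kB and interferon regulatory factors, while stressed cells switch on heat shock, antioxidant and immediate early genes.

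At 8 h, 1896 genes (13% of those tested) were called higher and 769 (5.26%) were called lower. Every list count below is to be set against these shares. A call is a Benjamini-Hochberg adjusted p under 0.1 in an edgeR quasi-likelihood fit of all 9 RV libraries, with a fold change over 1.5. Unadjusted p was under 0.05 for 4500 genes. All 3 libraries of 8 h lie above all 3 of 0 h for 1843 of the genes called higher, an order seen in 18.6% of all tested genes. For 734 of those called lower they all lie below, which holds for 16.9% of tested genes. Increases were larger than decreases: 671 genes rose over 4-fold and 153 over 16-fold, whereas 30 and 3 fell that far. The median log2 fold change is 1.53 among genes called higher, -0.84 among those called lower and -0.07 among all tested genes. Mean effective transcript length has a Spearman correlation of -0.0411 with the log2 fold change across genes, with a median of 2335 bases for genes called higher, 2615 for those called lower and 2289 for all.

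How many genes are called depends on single libraries. Without RV 0 h replicate 2 the counts were 1025 higher and 238 lower, and without RV 0 h replicate 3 they were 1207 and 250. Leaving out RV 8 h replicates 1, 2 and 3 in turn gave 477, 2018 and 336 genes called lower. In every one of the 6 fits without a library, 951 of the genes called higher (50.2%) and 170 of those called lower (22.1%) kept their call. Without RV 8 h replicate 3, 1290 (68.0%) and 293 (38.1%) kept it. Scaling matters to the balance of directions: upper-quartile factors in place of TMM move the median of all genes from -0.07 to -0.18 and the counts to 1700 higher and 1530 lower, so that 52.6% of calls are increases in place of 71.1%. With the replicate number as a block, 1288 genes were called lower. Genes whose fold change is given here kept their call in all 6 of those fits unless the text says otherwise.

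**Figure D1:**
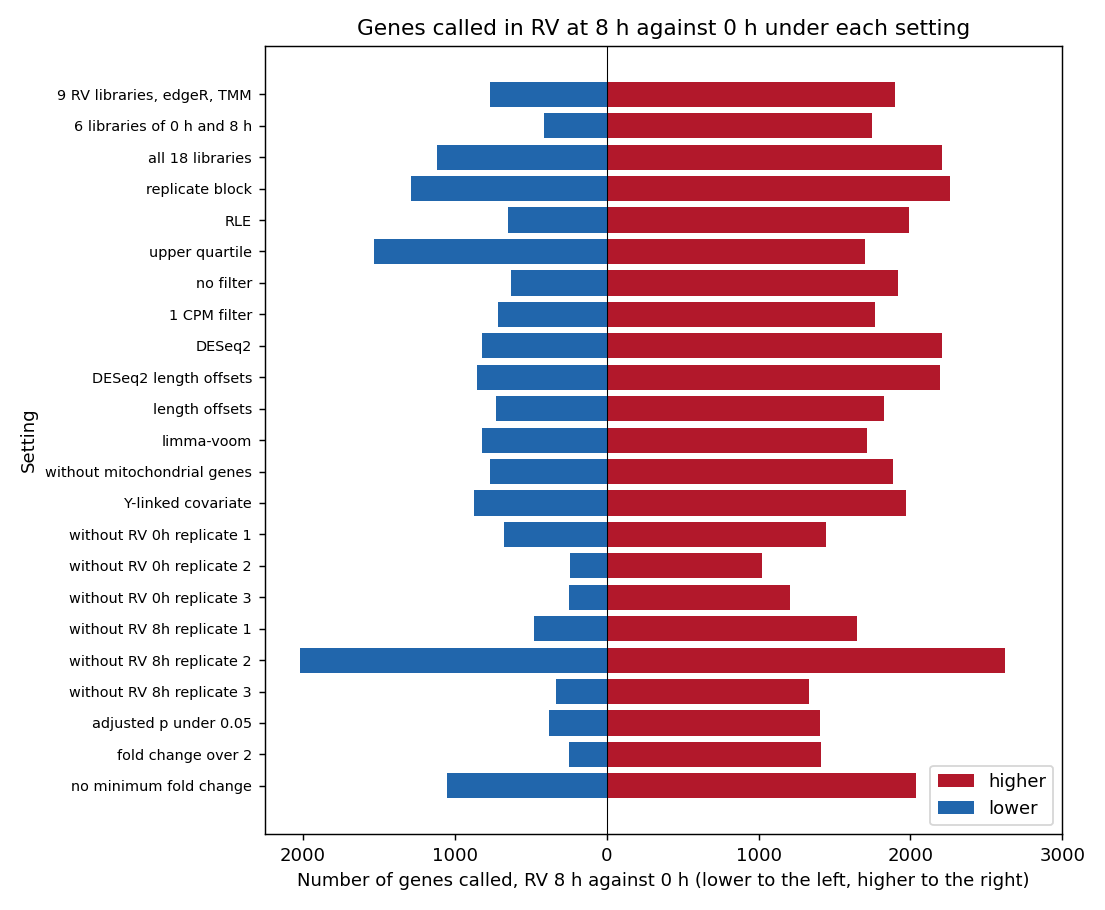
Genes called higher (right) and lower (left) in RV at 8 h against 0 h under each setting; counts of genes called lower run from 238 without RV 0 h replicate 2 to 2018 without RV 8 h replicate 2.

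**Figure D2:**
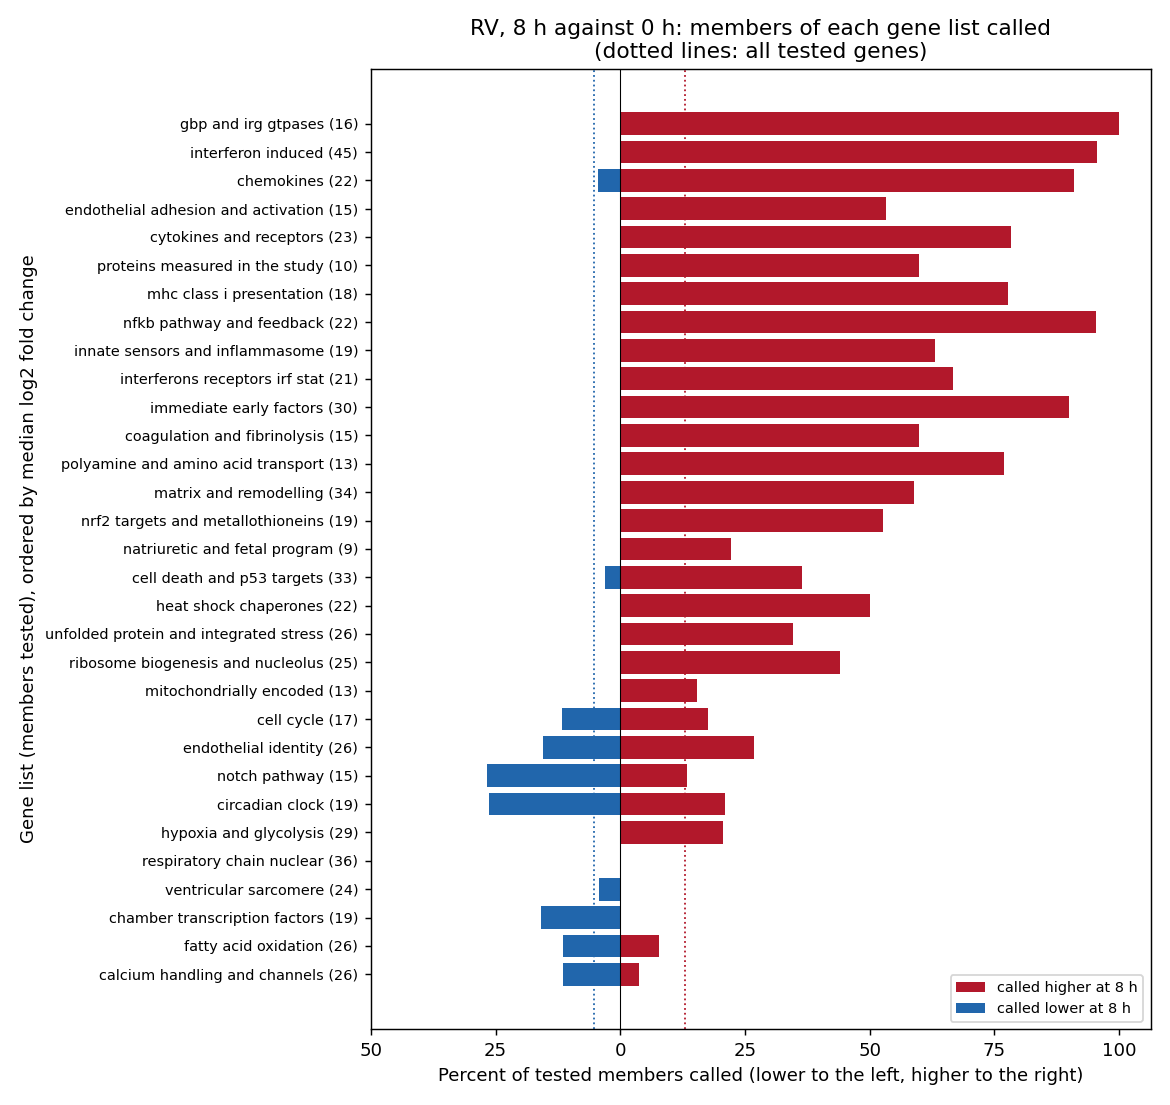
Percent of the tested members of each gene list called higher (right) or lower (left) at 8 h, without marker lists and lists of 4 genes; dotted lines mark all tested genes, 13% higher and 5.26% lower.

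Interferons are proteins by which a cell warns others of foreign or misplaced nucleic acid, and they switch on a set of antiviral genes through STAT proteins. Of 45 tested interferon-induced genes, 43 were called higher at 8 h, none lower and 2 were not called (Ifit1bl1 and Sp100), against 13% of all genes called higher. Their median log2 fold change is 4.21 against -0.07 for all genes, and 2.76 without RV 8 h replicate 3. That library is the highest of 8 h for 45 of the 45, and RV 8 h replicate 1 is the lowest for 42. Members called higher were 21, 14 and 20 without RV 0 h replicates 1, 2 and 3 and 23 without RV 8 h replicate 3. Summed TPM of the list are 344, 377 and 402 at 0 h and 1543, 2317 and 9723 at 8 h. Ifit1 (ENSMUSG00000034459.8), whose protein binds viral RNA that lacks host caps, has 6.21, 8.69 and 9.68 CPM at 0 h and 148, 388 and 1514 CPM at 8 h. The 8 h libraries are all above the 0 h libraries but differ among themselves, with a log2 fold change of 6.38 (SE 1.22, adjusted p = 0.0112), and 5.05 (adjusted p = 0.0193) without RV 8 h replicate 3. Mx1 and Mx2, GTPases that trap viral nucleocapsids, rose by 6.79 and 6.31 (adjusted p = 0.0161 and 0.019), or 4.66 and 4.61 without RV 8 h replicate 3. Ifitm3, which blocks fusion of viral membranes and is the most abundant of the list at 607 TPM at 8 h, rose by 2.90 (adjusted p = 0.00821), or 2.16 without that library. Rsad2, which makes a chain-ending nucleotide, rose by 6.18 (adjusted p = 0.0328), or 4.19 without that library, a call lost without RV 0 h replicate 2 (adjusted p = 0.133).

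Interferons act through receptors, kinases and transcription factors, and inhibitors made in response end the signal. Of 21 tested genes for interferons, their receptors, JAK kinases, STAT proteins, interferon regulatory factors and feedback inhibitors, 14 were called higher, 0 lower and 7 were not called (median 1.79). Without RV 8 h replicate 3 the median is 1.20. The calls fell to 7 and 9 without RV 0 h replicates 2 and 3, and 1 member was called lower without RV 8 h replicate 2. Socs1, an inhibitor of JAK kinases made in response to interferon, has 1.04, 0.829 and 0.99 CPM at 0 h and 14.4, 20.6 and 75.7 CPM at 8 h. Socs1 rose by 5.27 (SE 0.80, adjusted p = 0.00457), or 4.21 without RV 8 h replicate 3. Irf7 and Stat2, an activator of interferon genes and a part of the factor they act through, rose by 4.62 and 3.12 (adjusted p = 0.0251 and 0.026), or 2.95 and 2.05 without that library. Both calls are lost without RV 0 h replicate 2 (adjusted p = 0.105 and 0.106).

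Guanylate-binding proteins and immunity-related GTPases attack the membranes that shelter pathogens, and interferon gamma and type I interferon both induce them. All 16 tested members were called higher (median 4.26, and 2.98 without RV 8 h replicate 3). The count was 10, 6 and 7 without RV 0 h replicates 1, 2 and 3 and 10 without RV 8 h replicate 3. RV 8 h replicate 3 is the highest library of 8 h for all 16, and summed TPM are 107, 143 and 116 at 0 h and 613, 904 and 3742 at 8 h. Gbp5 (ENSMUSG00000105504.4, chromosome 3, 142493978 to 142522344, GRCm38), which promotes inflammasome assembly, has 10.8, 14.9 and 17 CPM at 0 h and 171, 290.4 and 1254 CPM at 8 h. Even the lowest library of 8 h is several times the highest of 0 h, and Gbp5 rose by 5.33 (SE 1.16, adjusted p = 0.0179), or 4.04 (adjusted p = 0.0388) without RV 8 h replicate 3. Gbp2, the most abundant at 332 TPM at 8 h, rose by 5.26 (adjusted p = 0.0216), or 3.69 without that library, and lost its call without RV 0 h replicate 2 (adjusted p = 0.101). These genes are close paralogs, so the split of reads between members is uncertain.

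Class I major histocompatibility molecules show peptides from inside the cell to T cells, and proteasome parts and transporters feed them. Of 18 tested members, 14 were called higher and 4 were not (Psmb9, Psmb10, Psme1 and Erap1), with a median of 2.26, and 0.96 without RV 8 h replicate 3. The count was 7, 7 and 7 without RV 0 h replicates 1, 2 and 3 and 7 without RV 8 h replicate 3. B2m, the light chain that every class I molecule needs, has 97.7, 109 and 132 CPM at 0 h and 327, 301 and 1014 CPM at 8 h. RV 8 h replicate 3 is about 3 times the other stored hearts, and B2m rose by 2.28 (SE 0.50, adjusted p = 0.0183), or 1.5 (adjusted p = 0.023) without that library. Tap1, which pumps peptides into the endoplasmic reticulum, rose by 4.42 (adjusted p = 0.015), or 3.23 without it. H2-Q4 and H2-Q6, non-classical class I chains with close paralogs beside them, rose by 3.59 and 3.83 (adjusted p = 0.0086 and 0.0129), or 2.65 and 2.78 without it.

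Chemokines are secreted proteins that draw leukocytes along a gradient, and each family of them draws a different kind. Of 22 tested, 20 were called higher, 1 lower (Cxcl12) and 1 was not called (Ccl6), with a median of 2.79. Summed TPM are 1219, 480.4 and 373 at 0 h and 3321, 3202 and 5277 at 8 h, and RV 0 h replicate 1 is the highest library of 0 h for 15 of the 22. Cxcl10 (ENSMUSG00000034855.13, chromosome 5, 92346638 to 92348889, GRCm38), which draws T cells and natural killer cells, has 12.1, 9.71 and 10.1 CPM at 0 h and 185, 439.6 and 2276 CPM at 8 h. The 0 h libraries are close to each other while those of 8 h spread widely, and Cxcl10 rose by 6.51 (SE 1.39, adjusted p = 0.0169), or 4.90 (adjusted p = 0.0336) without RV 8 h replicate 3. Cxcl9, which acts on the same receptor, rose by 6.15 (adjusted p = 0.0145), or 4.60 without that library. Ccl2, which draws monocytes, has 115, 35.1 and 24.7 CPM at 0 h and 451, 345 and 519 CPM at 8 h. Ccl2 rose by 2.92 (adjusted p = 0.00877). Cxcl1, an attractant of neutrophils and the most abundant chemokine over the 6 libraries, rose by 2.30 (adjusted p = 0.0205). At 8 h Cxcl10 is more abundant, with 958 TPM against 802 for Cxcl1. Cxcl12, which holds progenitor cells in place, was named after its values were seen: it has 90, 116 and 226 CPM at 0 h and 76.9, 57.1 and 78.1 CPM at 8 h and fell by 1.03 on the log2 scale (adjusted p = 0.074), a call lost without RV 0 h replicates 2 and 3 and RV 8 h replicates 1, 2 and 3 (adjusted p from 0.11 to 0.219).

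Cytokines of the interleukin 6 family and the interleukin 1 family start and restrain inflammation, and the heart's own cells make them. Of 23 tested cytokine and receptor genes, 18 were called higher, 0 lower and 5 were not called (Il1a, Il1b, Il1rl1, Il15 and Tnf), with a median of 2.37. Il6 (ENSMUSG00000025746.11, chromosome 5, 30013114 to 30019981, GRCm38), a fever and acute phase cytokine, has 8.26, 5.11 and 5.01 CPM at 0 h and 326, 242 and 378 CPM at 8 h. Il6 rose by 5.68 (SE 0.45, adjusted p = 5.43e-04), or 5.55 without RV 8 h replicate 3. Csf3, the growth factor that calls neutrophils out of bone marrow, has 0.635, 0.332 and 0.415 CPM at 0 h and 46.3, 39.9 and 88.8 CPM at 8 h, so it is near absent in every heart that was not stored. It rose by 6.96 (SE 0.60, adjusted p = 7.78e-04). Il1rn, which blocks the interleukin 1 receptor, has 1.59, 1.29 and 0.607 and 58.6, 51.8 and 40.6 CPM, with RV 8 h replicate 3 the lowest of its group. It rose by 5.43 (SE 0.33, adjusted p = 4.02e-04). Lif, a relative of interleukin 6 that protects heart muscle cells, rose by 4.63 (adjusted p = 0.00139).

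NF-kB is a transcription factor held in the cytoplasm by inhibitors, and it renews those inhibitors when it is active. Of 22 tested members of the pathway and of its feedback, 21 were called higher and Cyld, a deubiquitinase, was not (median 2.26). RV 0 h replicate 1 is the highest library of 0 h for 21 of the 22. Nfkbia, the main inhibitor and the most abundant member, has 252, 102 and 85.5 CPM at 0 h and 525, 387 and 866 CPM at 8 h, and it rose by 2.01 (SE 0.44, adjusted p = 0.0179). Its 0 h values differ, but the highest of them is below the lowest of 8 h. Nfkbie, a second inhibitor, rose by 3.04 (adjusted p = 0.00617). Tnip1 and Tnip3, partners of the ubiquitin editor that ends the signal, rose by 3.32 and 3.04 (adjusted p = 0.00262 and 0.0032). Birc3, a ubiquitin ligase that keeps cells alive under tumour necrosis factor, rose by 3.10 (adjusted p = 0.00364).

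Innate sensors recognise molecules of microbes and of damaged cells, and the inflammasome they assemble cuts cytokines and opens pores. Of 19 tested members, 12 were called higher, 0 lower and 7 were not called (median 1.87, and 1.235 without RV 8 h replicate 3). Without RV 8 h replicate 2, and with the replicate block, 1 member was called lower. Casp4, a caspase that binds bacterial lipid inside the cell and the most abundant member at 143 TPM at 8 h, has 11.8, 7.72 and 7.7 and 96.4, 90.8 and 270.1 CPM and rose by 4.07 (SE 0.51, adjusted p = 0.00216), or 3.39 without RV 8 h replicate 3. Tmem173, the STING adaptor that reports cytosolic DNA, rose by 3.62 (adjusted p = 0.00139). Nod2, a sensor of bacterial wall fragments, rose by 3.08 (adjusted p = 0.00977).

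The study also measured a set of inflammatory proteins, and their transcripts can be read here. Of 10 such genes, 6 were called higher, 0 lower and 4 were not called, with 3 called higher without RV 0 h replicate 2. Their median is 2.32, and 1.60 without RV 8 h replicate 3. Myd88, the adaptor below most Toll-like receptors, has 15.4, 13.4 and 13.9 CPM at 0 h and 95.3, 74.5 and 193 CPM at 8 h, and it rose by 3.09 (SE 0.45, adjusted p = 0.00405). The stored hearts are all above, although 290 of its exon bases overlap Acaa1a on the other strand. Il10, which restrains macrophages, has 0.26, 0.0663 and 0.128 and 1.93, 1.31 and 0.572 CPM, near the floor of detection, and rose by 3.02 (adjusted p = 0.0426), a call lost without RV 0 h replicates 2 and 3 and RV 8 h replicate 1 (adjusted p = 0.155, 0.14 and 0.116). Casp1 and Gsdmd, the inflammasome's caspase and the pore it opens, rose by 2.77 and 1.87 (adjusted p = 0.0537 and 0.0216), or 1.51 and 1.21 without RV 8 h replicate 3. Gsdmd lost its call without RV 0 h replicate 2 (adjusted p = 0.1) and Casp1 without RV 0 h replicates 1, 2 and 3 and RV 8 h replicate 3 (adjusted p from 0.129 to 0.19). Tnf has 83.1, 29.8 and 15.7 CPM at 0 h and 99.5, 92.3 and 81.7 CPM at 8 h, so RV 0 h replicate 1 overlaps the stored hearts, and it was not called at 1.09 (SE 0.51, adjusted p = 0.181). Tnf was called without RV 0 h replicate 1 (log2 fold change 2.0, adjusted p = 0.0147) and with the replicate block (adjusted p = 0.0456). Il1b and Nlrp3 were not called either, at 1.33 and 1.33 (adjusted p = 0.146 and 0.141), but both were with the block (adjusted p = 0.0427 and 0.0129), in both DESeq2 fits and with all 18 libraries, and Il1b with the 6 libraries alone and with a Y-linked covariate. DESeq2 called 8 of the 10 higher, and the block 9. Pycard, the adaptor between sensor and caspase, has 5.2, 5.14 and 5.88 CPM at 0 h and 5.53, 4.37 and 6.21 CPM at 8 h.

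Endothelial cells line the vessels, and when activated they raise adhesion molecules that catch passing leukocytes. Of 15 tested genes of adhesion and activation, 8 were called higher, 0 lower and 7 were not called (median 2.61). Selp (ENSMUSG00000026580.16, chromosome 1, 164115264 to 164150026, GRCm38), the P-selectin on which leukocytes roll, has 16.3, 6.13 and 5.4 CPM at 0 h and 409.5, 286 and 808 CPM at 8 h. The lowest stored heart is over 16-fold the highest heart of 0 h, and Selp rose by 5.75 (SE 0.62, adjusted p = 0.00133). Icam1, which stops rolling leukocytes and is the most abundant of the list, has 739, 171 and 91.5 and 1687, 1703 and 3254 CPM and rose by 2.73 (SE 0.68, adjusted p = 0.0307), with RV 0 h replicate 1 nearest to the stored hearts. That call is lost without RV 0 h replicate 2 (adjusted p = 0.123). Ptgs2, which makes prostaglandins, rose by 3.94 (adjusted p = 0.00107). Whole-ventricle RNA does not show which cells made the transcripts of this list, those of Acod1 among them. Acod1, which makes the anti-inflammatory metabolite itaconate, rose by 6.0 (adjusted p = 0.00519), or 4.99 without RV 8 h replicate 3. Ackr1, a receptor of venules that takes up chemokines, rose by 4.51 (adjusted p = 0.01), or 3.70 without that library, though 361 of its exon bases also belong to Cadm3 on the same strand.

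Genes of endothelial identity moved both ways. Of 26 tested, 7 were called higher, 4 lower (Egfl7, Hspa12b, Clec14a and Meox2) and 15 were not called (median 0.31). The 7 became 3 and 3 without RV 0 h replicates 2 and 3 and 4 without RV 8 h replicate 3. Egfl7, a matrix protein that guides sprouting vessels, has 62.1, 78 and 116 CPM at 0 h and 28.1, 14.5 and 21.2 CPM at 8 h. All stored hearts are below all others, and it fell by 2.0 (SE 0.45, adjusted p = 0.02). Clec14a, a lectin of vessel sprouts, has 7.02, 13.3 and 22.8 and 3.83, 2.27 and 2.06 CPM with RV 0 h replicate 1 the lowest of its group, and it fell by 2.39 (SE 0.47, adjusted p = 0.012). Hspa12b, a chaperone relative of endothelium, fell by 2.18 (adjusted p = 0.0322), a call lost without RV 0 h replicate 3 (adjusted p = 0.117). Meox2, a homeobox factor of quiescent vessels named after its values were seen, fell from 17.1, 25.1 and 22.3 to 6.82, 5.81 and 8.95 CPM, or by 1.58 on the log2 scale (adjusted p = 0.00364). Klf4, induced by flow, rose by 1.94 (adjusted p = 0.007). Of 8 endothelial markers only Egfl7 was called lower and none higher, and 1 was called higher without RV 0 h replicate 1, without RV 8 h replicate 2 and with the replicate block.

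Notch receptors pass signals between touching cells, and the Hes and Hey repressors are their usual targets. Of 15 tested members, 2 were called higher (Dll1 and Hes1), 4 lower (Hey1, Heyl, Hey2 and Notch3) and 9 were not called (median 0.02). Of all tested genes, 13% were called higher and 5.26% lower. Those called higher numbered 1 and 1 without RV 0 h replicates 2 and 3 and 4 without RV 8 h replicate 2. Dll1, a ligand, has 5.63, 3.58 and 4.95 CPM at 0 h and 30.9, 24.1 and 70.9 CPM at 8 h and rose by 3.15 (SE 0.43, adjusted p = 0.00326), or 2.56 without RV 8 h replicate 3, while Heyl has 21.9, 26 and 25.1 and 7.91, 8.04 and 6.97 CPM and fell by 1.67 (SE 0.23, adjusted p = 0.00334). Hey1 fell by 1.83 (adjusted p = 0.0129) and Notch3, a receptor of mural cells named after its values were seen, by 0.63 (adjusted p = 0.0111). Hes1 rose by 1.14 (adjusted p = 0.04), a call lost without RV 0 h replicates 2 and 3 (adjusted p = 0.15 and 0.141).

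Activated vessels also shift toward clotting and toward control of the protease plasmin. Of 15 tested genes of coagulation and fibrinolysis, 9 were called higher, 0 lower and 6 were not called (median 1.33), with 1 called lower without RV 0 h replicate 3, without RV 8 h replicate 2 and with upper-quartile factors. Proc, F5 and F7 were below the filter. Procr, which presents protein C at the vessel wall, has 2.69, 0.995 and 1.69 CPM at 0 h and 32.5, 14.9 and 39.2 CPM at 8 h and rose by 4.0 (SE 0.58, adjusted p = 0.00375), with all stored hearts above all others. Plaur, the receptor for urokinase, rose by 3.56 (adjusted p = 0.0118). Tfpi2, a protease inhibitor of the matrix, rose by 4.62 (adjusted p = 0.00107). Thbs1, a platelet and matrix protein, rose by 3.33 (adjusted p = 0.00492).

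Immediate early genes need no new protein to start and report that a cell was recently stimulated. Of 30 tested, 27 were called higher, 0 lower and 3 were not called (Egr3, Nr4a1 and Nr4a3), with a median of 1.76. RV 0 h replicate 1 is the highest library of 0 h for 25 of them. Fosb (ENSMUSG00000003545.3), a partner of Jun in the AP-1 factor, has 202, 184 and 266 CPM at 0 h and 911, 1351 and 1923 CPM at 8 h. Every stored heart is more than 3 times any other, and Fosb rose by 2.68 (SE 0.30, adjusted p = 0.00139). Fosl1 and Junb, other AP-1 parts, rose by 3.98 and 1.82 (adjusted p = 0.0145 and 0.0168), though 1163 exon bases of Fosl1 overlap Ccdc85b and 173 of Junb overlap Prdx2 on the other strand. Myc, a driver of growth, has 18.9, 12 and 9.58 and 113, 76.4 and 105 CPM and rose by 2.87 (adjusted p = 0.00165). Csrnp1, a nuclear factor induced by axin, rose by 2.97 (adjusted p = 0.00617). Nr4a2, an orphan nuclear receptor, rose by 1.28 (adjusted p = 0.0291) with a call lost without RV 0 h replicate 2 (adjusted p = 0.112).

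Cell-autonomous clocks set daily rhythms in heart muscle through activators, repressors and output factors. Hearts of 8 h were frozen later after harvest than hearts of 0 h, and time of day is not in the labels, so storage time and clock time cannot be told apart. Of 19 tested clock genes, 4 were called higher, 5 lower and 10 were not called (median -0.07). Output factors that bind D-boxes fell: Dbp (ENSMUSG00000059824.12, chromosome 7, 45705088 to 45710203, GRCm38) has 75.4, 133 and 112 CPM at 0 h and 9.71, 14.2 and 23.9 CPM at 8 h. All stored hearts lie far below all others, and Dbp fell by 2.74 (SE 0.48, adjusted p = 0.00821), although 539 of its exon bases overlap Sphk2. Tef and Hlf, of the same family, fell by 1.49 and 1.54 (adjusted p = 0.00526 and 0.0105). Per3, a repressor, has 25.7, 58.3 and 50.2 and 6.2, 6.51 and 8.95 CPM with no overlap and fell by 2.63 (SE 0.34, adjusted p = 0.0026), and Per2 fell by 1.28 (adjusted p = 0.00931).

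Among clock genes that went up, Nfil3, which competes for D-boxes, has 13.7, 8.75 and 8.98 CPM at 0 h and 66.8, 58.1 and 57.9 CPM at 8 h and rose by 2.54 (SE 0.28, adjusted p = 0.00139). Arntl and Npas2, activators that bind E-boxes, rose by 2.53 and 1.89 (adjusted p = 0.00619 and 0.00133). Cry1, a repressor, rose by 0.76 (adjusted p = 0.0501), a call lost without RV 0 h replicates 1 and 3 and RV 8 h replicates 1 and 3 (adjusted p from 0.112 to 0.148). The 10 not called include Per1, Cry2, Nr1d1, Nr1d2, Clock, Rora, Bhlhe40, Bhlhe41 and Ciart. Their log2 fold changes run from -0.91 for Ciart (adjusted p = 0.24) to 0.91 for Bhlhe40 (adjusted p = 0.144). Both of those were called with the replicate block (adjusted p = 0.094 and 0.00684), Bhlhe40 without RV 0 h replicate 1 (adjusted p = 0.0628) and in DESeq2, and Ciart with a Y-linked covariate.

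**Figure D3:**
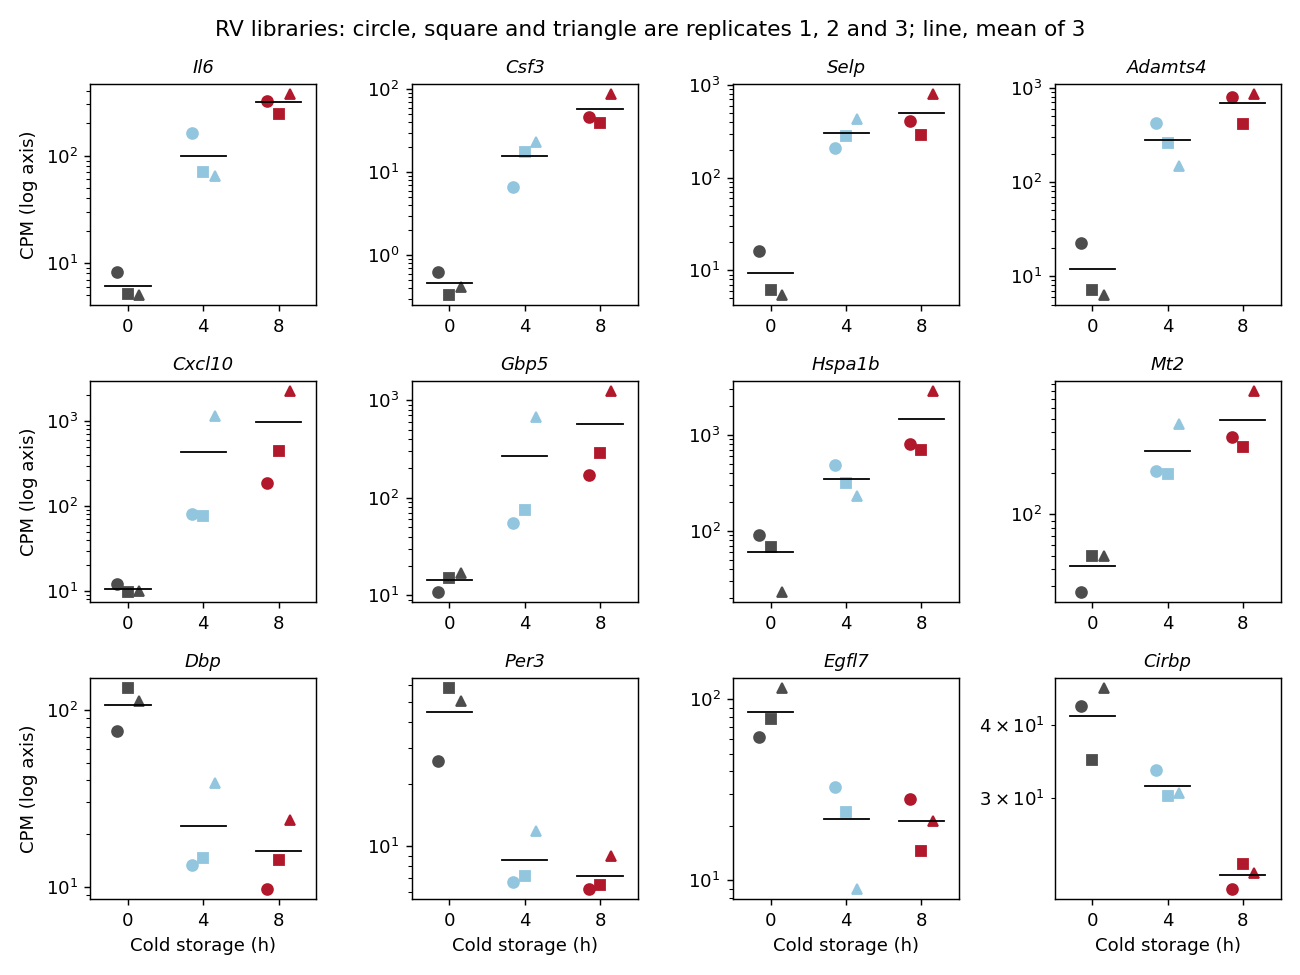
CPM of 12 genes in each RV library at 0, 4 and 8 h of storage; Il6 runs from 8.26, 5.11 and 5.01 CPM at 0 h to 326, 242 and 378 at 8 h, and Dbp from 75.4, 133 and 112 to 9.71, 14.2 and 23.9.

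Heat shock proteins refold damaged proteins and are induced when unfolded protein frees their activator. Of 22 tested chaperones, 11 were called higher, 0 lower and 11 were not called (median 0.59), with 7 and 7 without RV 0 h replicates 2 and 3. Hspa1b (ENSMUSG00000090877.3, chromosome 17, 34956436 to 34959238, GRCm38), an inducible form of HSP70, has 90.7, 68.6 and 23.1 CPM at 0 h and 799.7, 685 and 2857 CPM at 8 h. RV 8 h replicate 3 is the highest by far, but no library overlaps, and Hspa1b rose by 4.57 (SE 0.72, adjusted p = 0.00545), or 3.63 (adjusted p = 0.00581) without it. Hspa1a, its neighbour with nearly the same sequence, rose by 4.24 (adjusted p = 0.00468), or 3.44 without that library, so the split between the 2 genes is uncertain. Dnajb1 and Hsph1, which help HSP70 to bind and release its clients, rose by 3.14 and 2.97 (adjusted p = 0.00139 and 0.00954), and Hsph1 by 2.11 without that library.

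Some RNA-binding proteins are made when cells are cooled by a few degrees. Of 4 genes induced or spliced by cold, Cirbp was called lower and Rbm3, Srsf5 and Rtn3 were not called (median 0.21). Cirbp has 43, 34.8 and 46.3 CPM at 0 h and 21, 23.2 and 22.4 CPM at 8 h, so the stored hearts lie together below all others, and it fell by 0.90 (SE 0.14, adjusted p = 0.00545). Rbm3 has 54, 42.8 and 61 and 70.1, 63.4 and 98.1 CPM with a log2 fold change of 0.55 (SE 0.20, adjusted p = 0.104), and it was called higher without RV 8 h replicate 2 (adjusted p = 0.0507) and with RLE factors. Srsf5 has a log2 fold change of 0.50 (adjusted p = 0.0836), below the minimum fold.

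The unfolded protein and integrated stress responses slow translation and raise chaperones of the endoplasmic reticulum and enzymes for amino acids. Of 26 tested members, 9 were called higher, 0 lower and 17 were not called (median 0.53). Hspa5, the chaperone that guards the endoplasmic reticulum, has 683, 637 and 355 CPM at 0 h and 712, 961 and 823 CPM at 8 h and was not called at 0.58 (SE 0.25, adjusted p = 0.16). Its 0 h libraries differ by more than those of 8 h, and the replicate block called it (adjusted p = 0.0963). Asns, which makes asparagine, rose by 2.33 (adjusted p = 0.0165). Gadd45g and Gadd45b, stress proteins that activate MAP kinases, rose by 3.19 and 2.62 (adjusted p = 0.00561 and 0.0119).

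Oxidants free the factor NRF2, and free zinc or copper induces metallothioneins. Of 19 tested targets, 10 were called higher, 0 lower and 9 were not called (median 0.95), with 1 called lower without RV 0 h replicate 1 or RV 8 h replicate 2 and 2 with upper-quartile factors. Mt2 (ENSMUSG00000031762.7), which binds zinc, has 27, 49.4 and 49.3 CPM at 0 h and 368, 309 and 799 CPM at 8 h. Its stored hearts are all above 300 CPM and the others all below 50, and Mt2 rose by 3.55 (SE 0.50, adjusted p = 0.00348). Mt1 beside it rose by 1.74 (adjusted p = 0.0225). Hmox1, which breaks down haem, rose by 2.61 (adjusted p = 0.00864). Slc7a11, which imports cystine for glutathione, and Txnrd1, which reduces thioredoxin, rose by 2.36 and 1.91 (adjusted p = 0.00821 and 0.00285). Fth1, the ferritin heavy chain and the most abundant member, has a log2 fold change of 0.23 (adjusted p = 0.449) and was not called.

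A heart short of oxygen turns to glucose, and hypoxia-inducible factor raises the genes for it. Of 29 tested genes of hypoxia and glycolysis, 6 were called higher, 0 lower and 23 were not called, with a median of -0.22. Members called higher were 3 and 3 without RV 0 h replicates 2 and 3, while 5 without RV 8 h replicate 2, 3 with the replicate block and 2 with upper-quartile factors were called lower. Summed TPM are 12444, 9943 and 9832 at 0 h and 7643, 8361 and 5369 at 8 h, lower in all stored hearts (exact permutation p = 0.1). Pfkfb3, which makes the strongest activator of glycolysis, has 37.3, 22.1 and 22.7 CPM at 0 h and 379, 373 and 949.9 CPM at 8 h. The lowest stored heart has about 10 times the CPM of the highest other heart, and Pfkfb3 rose by 4.37 (SE 0.57, adjusted p = 0.00269). Adm, a peptide that widens vessels, and Pfkp, an isoform of phosphofructokinase, rose by 2.36 and 1.03 (adjusted p = 0.00213 and 0.0119), although 748 exon bases of Pfkp overlap Pitrm1.

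Fatty acids are the main fuel of the beating heart. Of 26 tested genes for their uptake and oxidation, 2 were called higher (Angptl4 and Ppard), 3 lower (among them Cpt1a and Slc27a1) and 21 were not called (median -0.45). Counts called higher were 1, 0 and 1 without RV 0 h replicates 1, 2 and 3 and 0 and 1 without RV 8 h replicates 1 and 3, and members called lower were 13 without RV 8 h replicate 2. With upper-quartile factors 1 was called higher. Summed TPM are 13152, 12528 and 9894 at 0 h and 7415, 8972 and 5014 at 8 h, lower in all stored hearts (exact permutation p = 0.1). Slc27a1, a transporter of long-chain fatty acids, has 221, 293 and 267 CPM at 0 h and 134, 161 and 137 CPM at 8 h, with stored hearts all below, and it fell by 0.85 (SE 0.19, adjusted p = 0.0211). Cpt1a, the liver-type enzyme that admits fatty acids to mitochondria, fell by 0.96 (adjusted p = 0.0215). Ppard, a nuclear receptor for fatty acids, was named after its values were seen. Fabp3, the most abundant member, has a log2 fold change of -0.23 (adjusted p = 0.409).

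Respiratory chain subunits come from 2 genomes, that of the nucleus and that of mitochondria. None of 36 tested nuclear genes was called in edgeR (median -0.24), none was in DESeq2, and 9 were called lower without RV 8 h replicate 2 and 1 with upper-quartile factors. Their summed TPM are 42622, 36906 and 35934 at 0 h and 26454, 28945 and 24131 at 8 h, lower in all stored hearts (exact permutation p = 0.1). Atp5b, the most abundant of them, has 4648, 4242 and 4386 CPM at 0 h and 3295, 4122 and 2039 CPM at 8 h, lowest in RV 8 h replicate 3, with a log2 fold change of -0.49 (SE 0.26, adjusted p = 0.218). It was called lower without RV 8 h replicate 2 (adjusted p = 0.0642). Of 13 mitochondrially encoded genes, 2 were called higher (mt-Co2 and mt-Co3), 0 lower and 11 were not called (median 0.48), with 0, 0 and 5 without RV 0 h replicates 1, 2 and 3 and 0 and 1 without RV 8 h replicates 1 and 3. With upper-quartile factors 0 were called. Of these mt-Co3, a subunit of cytochrome oxidase, rose by 0.77 (adjusted p = 0.082), a call lost without RV 0 h replicates 1 and 2 and RV 8 h replicates 1 and 3 (adjusted p from 0.14 to 0.238). Nuclear copies of mitochondrial genes resemble them, so these values are uncertain.

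Contraction rests on the sarcomere, and 1 of 24 tested sarcomere genes was called: Myom2, which ties thick filaments at the M-band. It fell by 0.89 (adjusted p = 0.0964), a call lost without RV 0 h replicates 1, 2 and 3 and RV 8 h replicates 1 and 3 (adjusted p from 0.106 to 0.251). The median of the list is -0.28 and its summed TPM are 81523, 65247 and 65840.1 at 0 h and 49764, 52033 and 42950.3 at 8 h. Members called lower were 7 without RV 8 h replicate 2, 0 without any other library of the 6, 4 with upper-quartile factors and 2 with the replicate block, and 1 member was called higher without RV 0 h replicate 1, without RV 8 h replicate 2 and with the block. Myh6, the main myosin of the mouse ventricle, has 38828, 37068 and 30709 CPM at 0 h and 23978, 31002 and 13085 CPM at 8 h, lowest in RV 8 h replicate 3. In TPM that library is instead the highest of 8 h, with 9303, 8761 and 9977 at 8 h against 13821, 11519.8 and 12226 at 0 h. It was not called at -0.65 (SE 0.30, adjusted p = 0.181) but was without RV 8 h replicate 2 (log2 fold change -0.94, adjusted p = 0.052), with all 18 libraries and with upper-quartile factors. Of 8 cardiomyocyte markers, 2 were called lower without that library and 1 with upper-quartile factors.

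Calcium cycling and ion channels set the beat. Of 26 tested genes, 1 was called higher (Kcna5), 3 lower (Kcnh2, Kcnip2 and Gja5) and 22 were not called. Their median is -0.59, and -0.18 without RV 8 h replicate 3. Lower calls were 11 with the replicate block, 8 with upper-quartile factors and 6 in DESeq2. Members called lower were 1, 1 and 1 without RV 0 h replicates 1, 2 and 3 and 0, 13 and 0 without RV 8 h replicates 1, 2 and 3, and members called higher were 0, 0 and 0 without RV 0 h replicates 1, 2 and 3 and 0 without RV 8 h replicate 3. Kcnip2, which tunes the fast outward potassium current, has 154, 183 and 154 CPM at 0 h and 106, 115 and 50.8 CPM at 8 h, with stored hearts all below, and it fell by 0.85 (SE 0.28, adjusted p = 0.0811). The call is lost without RV 0 h replicates 1, 2 and 3 and RV 8 h replicates 1 and 3 (adjusted p from 0.0887 to 0.227, with a log2 fold change of -0.54 where it is under 0.1). Kcnh2, a channel of repolarisation, fell by 0.79 (adjusted p = 0.0592), a call lost without RV 0 h replicate 2 and RV 8 h replicates 1 and 3 (adjusted p = 0.214, 0.111 and 0.158). Atp2a2, the calcium pump of the sarcoplasmic reticulum and the most abundant member, has 15371, 17549.9 and 8720.0 and 10181, 13666 and 3698 CPM, which overlap, and a log2 fold change of -0.60 (SE 0.44, adjusted p = 0.357).

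Stretched or failing hearts switch on a fetal set that includes natriuretic peptides. Of 9 tested members, 2 were called higher (Rcan1 and Actn1), 0 lower and 7 were not called (median 0.74), with 1 and 1 without RV 0 h replicates 2 and 3 and 4 and 1 without RV 8 h replicates 2 and 3. Rcan1, a calcineurin inhibitor that calcineurin itself induces, has 111, 56.2 and 51.4 CPM at 0 h and 331, 200 and 204 CPM at 8 h, without overlap, and rose by 1.75 (SE 0.39, adjusted p = 0.0188). Nppa, the atrial peptide, has 236, 151 and 67.6 and 526, 77.2 and 154 CPM, which overlap widely.

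Transcription factors of heart chambers keep ventricular identity. Of 19 tested, 0 were called higher, 3 lower (Tbx20, Irx4 and Hey2) and 16 were not called (median -0.34), with 5 called lower and 1 higher under the replicate block and 8 lower with upper-quartile factors. Members called lower were 1, 0 and 0 without RV 0 h replicates 1, 2 and 3 and 0, 8 and 0 without RV 8 h replicates 1, 2 and 3, and 1 was called higher without RV 8 h replicate 2. Irx4, a ventricular homeobox factor, has 18.1, 20.4 and 17.2 CPM at 0 h and 8.74, 15 and 5.37 CPM at 8 h, lowest in RV 8 h replicate 3, and fell by 0.94 (SE 0.31, adjusted p = 0.08). The call is lost without RV 0 h replicates 1, 2 and 3 and RV 8 h replicates 1 and 3 (adjusted p from 0.142 to 0.217). Mef2d, the most abundant, has a log2 fold change of -0.52 (adjusted p = 0.0992) and was called lower without RV 8 h replicate 2 (adjusted p = 0.0396) and with upper-quartile factors.

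Injured tissue rebuilds its matrix, and proteases, inhibitors and growth factors lead the collagens. Of 34 tested genes of matrix and remodelling, 20 were called higher, 0 lower and 14 were not called (median 1.06). Adamts4 (ENSMUSG00000006403.13, chromosome 1, 171250421 to 171260637, GRCm38), a protease of the proteoglycan versican, has 22.7, 7.16 and 6.29 CPM at 0 h and 805, 408 and 867 CPM at 8 h. Its lowest stored heart exceeds its highest other heart over 16-fold, and it rose by 5.84 (SE 0.67, adjusted p = 0.00163). Has1, which makes hyaluronan, has 3.06, 1.79 and 1.18 and 65.1, 43.3 and 91.5 CPM and rose by 5.04 (SE 0.47, adjusted p = 0.00102). Timp1, an inhibitor of matrix metalloproteases, and Ereg, a ligand of the EGF receptor, rose by 4.73 and 4.83 (adjusted p = 0.00129 and 5.43e-04). Ccn1, the most abundant member and a target of YAP, rose by 1.03 (adjusted p = 0.0516), a call lost without RV 0 h replicates 2 and 3 (adjusted p = 0.178 and 0.166).

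Death receptors, caspases and p53 decide whether a damaged cell lives. Of 33 tested genes, 12 were called higher, 1 lower (Casp9) and 20 were not called (median 0.64), with 3 called lower under the replicate block and with upper-quartile factors. Members called higher were 6 without RV 0 h replicate 2, and those called lower were 0 and 0 without RV 0 h replicates 2 and 3 and 3 without RV 8 h replicate 2. Cdkn1a, the p53 target p21 and the most abundant member, has 141, 36.9 and 29.8 CPM at 0 h and 458, 362 and 841 CPM at 8 h. RV 0 h replicate 1 is the highest of its group but below every stored heart, and Cdkn1a rose by 3.0 (SE 0.61, adjusted p = 0.0139). Fas, a death receptor, and Ripk1, a kinase below it, rose by 2.35 and 2.37 (adjusted p = 0.00576 and 0.0028). Casp9, the starter of the mitochondrial death pathway and named after its values were seen, fell by 1.14 (adjusted p = 0.0355), a call lost without RV 0 h replicates 2 and 3 (adjusted p = 0.131 and 0.102).

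Growth signals raise the making of ribosomes and polyamines. Of 25 tested genes of ribosome biogenesis, 11 were called higher, 0 lower and 14 were not called (median 0.51). Nop58, a core protein of the particles that methylate ribosomal RNA, has 23, 18.1 and 16.3 CPM at 0 h and 99.8, 54.4 and 128 CPM at 8 h, without overlap, and rose by 2.30 (SE 0.33, adjusted p = 0.00364). Gnl3, Ddx21 and Nolc1, nucleolar proteins, rose by 1.49, 1.34 and 1.13 (adjusted p = 0.00425, 0.00545 and 0.00892). Npm1, the most abundant, was not called at 0.46 (adjusted p = 0.148). For polyamines and amino acid transport, 10 of 13 tested were called higher, 0 lower and 3 were not called (Amd1, Sms and Slc7a1), with a median of 1.32. Odc1, the first enzyme of the pathway, has 72.6, 49.5 and 47.1 and 270.5, 208 and 256 CPM, without overlap, and rose by 2.12 (adjusted p = 0.0042). Sat1, which breaks polyamines down, rose by 1.82 (adjusted p = 0.00433), as did the transporters Slc7a2 and Slc7a5 by 2.55 and 2.47 (adjusted p = 0.00637 and 0.00696).

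Few cells divide in an adult ventricle. Of 17 tested cell cycle genes, 3 were called higher (Mki67, Top2a and Pcna), 2 lower (Cdkn1b and Cdkn2c) and 12 were not called (median 0.45). Calls of increase numbered 5 without RV 8 h replicate 2, and members called lower were 1, 1 and 1 without RV 0 h replicates 1, 2 and 3 and 1 and 1 without RV 8 h replicates 1 and 3. Mki67, a chromosome coat of dividing cells, has only 4.47, 3.25 and 3.39 CPM at 0 h and 7.33, 12.1 and 9.45 CPM at 8 h and rose by 1.37 (SE 0.31, adjusted p = 0.0194). Pcna, the clamp of DNA polymerase, rose by 1.20 (adjusted p = 0.0142), and Top2a, which untangles chromosomes, by 1.25 (adjusted p = 0.0369), a call lost without RV 0 h replicates 1 and 2 (adjusted p = 0.107 and 0.144). Cdkn1b, the inhibitor p27, has 38.1, 46.8 and 41.3 and 23.1, 28.1 and 19.6 CPM, without overlap, and fell by 0.83 (adjusted p = 0.0139). Cdkn2c, another inhibitor, was named after its values were seen.

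Markers of single cell types help to read a whole-tissue result, and their part in it was not tested. Fibroblast markers, led by Gsn, sum to 1373, 1496 and 1164 TPM at 0 h and 1749, 1074 and 1272 TPM at 8 h. Of 8 tested, 1 (Tcf21) was called higher (median 0.51), which was 0, 0 and 0 without RV 0 h replicates 1, 2 and 3 and 0 and 5 without RV 8 h replicates 1 and 2, and 3 with the replicate block. Tcf21, a fibroblast transcription factor, rose by 0.98 (adjusted p = 0.0453), lost without RV 0 h replicates 1, 2 and 3 and RV 8 h replicate 1 (adjusted p from 0.115 to 0.133). Of 9 markers of pericytes and smooth muscle, led by Rgs5, 2 were called lower (median 0.16), with 1 and 1 without RV 0 h replicates 2 and 3. Cspg4, a proteoglycan of pericytes, has 24.9, 30.6 and 30.8 and 17.9, 17.5 and 16.2 CPM and fell by 0.74 (SE 0.14, adjusted p = 0.0101), without overlap. Kcnj8, a potassium channel, fell by 1.48 (adjusted p = 0.0403), lost without RV 0 h replicates 2 and 3 and RV 8 h replicate 3 (adjusted p = 0.113, 0.127 and 0.115). The list sums to 356, 391 and 359 and 366, 303 and 362 TPM, and members called higher were 1 without RV 0 h replicate 3 and 2 without RV 8 h replicate 2, and 2 with the block. Of 5 endocardial markers, led by Vwf, Npr3 was called lower at -0.91 (adjusted p = 0.0183), with sums of 64, 68.7 and 72.5 and 72.6, 40.6 and 89.8 TPM and a median of 0.36, with 2 called higher without RV 8 h replicate 2 and 1 with the block. Endothelial markers, led by Fabp4, sum to 782, 828 and 1115 and 1033, 566 and 746 TPM (median 0.35).

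Of 10 tested macrophage markers, 5 were called higher (Adgre1, Lyve1, Mrc1, C1qb and Timd4), 0 lower and 5 were not called (Cd68, Csf1r, Cx3cr1, Cd163 and C1qa), with a median of 0.71. The 5 became 3 and 1 without RV 0 h replicates 1 and 2 and 3 without RV 8 h replicate 1. Summed TPM are 140.5, 136 and 178 at 0 h and 248, 140.4 and 139 at 8 h, so the groups overlap. C1qb leads the list over the 6 libraries and C1qa at 0 h. Mrc1, the mannose receptor of resident macrophages, has 25.7, 29.3 and 33.6 CPM at 0 h and 74.5, 69.3 and 39.1 CPM at 8 h, lowest of the stored hearts in replicate 3, and rose by 1.05 (SE 0.24, adjusted p = 0.0208). Timd4, a receptor for dying cells, and Adgre1, the F4/80 antigen, rose by 1.05 and 0.91 (adjusted p = 0.0238 and 0.0256), and each call is lost without RV 0 h replicate 2 (adjusted p = 0.105 and 0.118).

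Only 2 of 8 neutrophil markers passed the filter and 1 was called, Csf3r, the receptor for the product of Csf3. It has 1.99, 0.962 and 2.3 CPM at 0 h and 12.8, 11.5 and 14.6 CPM at 8 h, all stored hearts above the others, and rose by 2.88 (SE 0.37, adjusted p = 0.00226). The 8 markers, led by Csf3r, sum to 1.69, 1.07 and 2.22 and 14.6, 6.14 and 12.9 TPM (median of the 2 tested 1.95), with Ly6g at 0 in all 6 libraries and Mmp8 at 0 in those of 0 h. The count was 3, 3 and 3 without RV 0 h replicates 1, 2 and 3 and 4 without RV 8 h replicate 2, where more markers passed the filter. Of 4 tested monocyte markers, led by Fn1, 2 were called higher (Plac8 and Fn1) and 1 lower (Ccr2), with sums of 17, 19.4 and 14.3 and 21.2, 17.4 and 40.3 TPM and a median of 1.20. Calls of increase were 1 and 1 without RV 0 h replicates 1 and 3 and 1 without RV 8 h replicate 3, and lower 0 and 0 without RV 0 h replicates 2 and 3 and 0, 0 and 0 without RV 8 h replicates 1, 2 and 3. Fn1, fibronectin, which other cells make too, rose by 1.0 (adjusted p = 0.0277). Ccr2, the receptor for the product of Ccl2, fell by 1.31 (adjusted p = 0.096), lost without RV 0 h replicates 2 and 3 and RV 8 h replicates 1, 2 and 3 (adjusted p from 0.125 to 0.312).

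Of 4 tested T and natural killer markers, led by Cd3d, 0 were called (median 1.15), with sums of 1.48, 1.35 and 1.42 and 1.84, 1.74 and 2.63 TPM. Cd3d, a chain of the T cell receptor complex, has 0.375, 0.166 and 0.447 and 0.932, 1.09 and 1.26 CPM and was not called (adjusted p = 0.135) but was with the replicate block (adjusted p = 0.0532) and in DESeq2, and 1 member was called without RV 8 h replicate 2. Of 2 tested B cell markers Ighm, the heavy chain of immunoglobulin M, fell by 1.58 (adjusted p = 0.0542), lost without RV 0 h replicates 2 and 3 and RV 8 h replicate 3 (adjusted p = 0.105, 0.192 and 0.147). The B list, led by Ighm, sums to 2.85, 3.72 and 5.49 and 2.61, 1.66 and 2.27 TPM (median of the 2 tested 0.16), and 1 member was called higher without RV 8 h replicate 2. Of 5 tested mast cell markers, Kit was called higher (median 0.80), with sums of 8.32, 7.88 and 6.4 and 14.7, 6.14 and 10.9 TPM. Mcpt4 leads the list over the 6 libraries and Kit at 8 h. Kit, the receptor for stem cell factor, rose by 0.88 (adjusted p = 0.0542), lost without RV 0 h replicates 2 and 3 and RV 8 h replicates 1 and 3 (adjusted p from 0.128 to 0.181), and 4 members were called without RV 8 h replicate 2.

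Of 7 tested erythroid and platelet markers, led by Pf4, 1 was called higher (Itga2b), with a median of 2.83 and sums of 55.6, 37.9 and 47.2 and 191, 43.9 and 97.6 TPM, highest in RV 8 h replicate 1. The count was 0, 0 and 0 without RV 0 h replicates 1, 2 and 3 and 0, 6 and 0 without RV 8 h replicates 1, 2 and 3 and 5 with the replicate block. Of 4 tested adipocyte markers, led by Cfd, 0 were called (median 1.51), with sums of 9.81, 9.91 and 7.8 and 35.8, 7.83 and 20.8 TPM, Ucp1 at 0 in all libraries of 0 h, and 3 called without RV 8 h replicate 2. Cfd has a log2 fold change of 1.72 (adjusted p = 0.103) and was called without RV 8 h replicate 2 (adjusted p = 0.0291), with the block (adjusted p = 0.0808), with the 6 libraries alone, with RLE factors, without a filter, in both DESeq2 fits and with a Y-linked covariate. Of 6 epicardial markers, led by Wt1, 0 were called, with sums of 30.5, 9.27 and 6.14 and 20.7, 15.8 and 25.6 TPM. Their median is -0.44, and 0.52 without RV 0 h replicate 1. Wt1, a factor of the epicardium, has a log2 fold change of 1.25 (SE 0.50, adjusted p = 0.125) and was called with the block (adjusted p = 0.0658), without RV 0 h replicate 1 (adjusted p = 0.0127), without RV 8 h replicate 2 (adjusted p = 0.0813), in both DESeq2 fits and with limma-voom. Of 5 Schwann cell markers, 0 were called (median -0.02) with sums of 7.78, 7.87 and 6.13 and 4.8, 4.53 and 4.07 TPM, and 1 was called lower without RV 8 h replicate 2 and with the block. Of 7 atrial markers, led by Nppa, 0 were called, with 2 called lower under the block and 1 without RV 0 h replicate 1, RV 8 h replicate 2 or RV 8 h replicate 3. Their median is 0.26, and -0.73 without RV 8 h replicate 1.

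Ubd, a ubiquitin-like tag induced by interferon gamma and tumour necrosis factor, has 0, 0.0331 and 0.0319 CPM at 0 h and 1.22, 0.612 and 14.9 CPM at 8 h and rose by 7.80 (SE 1.87, adjusted p = 0.0261), the largest increase of the genes named by rule. The call is lost without RV 0 h replicates 2 and 3 (adjusted p = 0.106 and 0.1), and without RV 8 h replicate 3 the value is 5.24. Fgf23, a hormone of phosphate balance, has 0.318, 0.0995 and 0.0319 and 14.7, 7.21 and 18.4 CPM, near absent in hearts not stored, and rose by 6.41 (SE 0.60, adjusted p = 0.00102). Calhm6, a channel of immune cells, and Serpina3g, a protease inhibitor, rose by 6.41 and 6.32 (adjusted p = 0.00864 and 0.0216), or 5.55 and 4.32 without RV 8 h replicate 3. Cxcl11, Slfn4, Gbp11 and Olfr56, also named by rule, rose by 7.71, 6.83, 6.77 and 6.38 (adjusted p = 0.0345, 0.041, 0.0566 and 0.0671), or 5.32, 4.07, 4.16 and 3.71 without it. Mean CPM at 0 h are 0.0641 for Calhm6, 0.488 for Serpina3g, 0.1165 for Cxcl11, 0.242 for Slfn4, 0.0811 for Gbp11 and 0.361 for Olfr56. Like those of Ubd, these values are near the floor of detection, so the size of each log2 fold change is uncertain. Cxcl11 lost its call without RV 0 h replicates 1, 2 and 3 (adjusted p = 0.103, 0.135 and 0.101), Slfn4 without RV 0 h replicates 1, 2 and 3 and RV 8 h replicate 3 (adjusted p from 0.114 to 0.142), Gbp11 without RV 0 h replicates 1, 2 and 3 and RV 8 h replicate 3 (adjusted p from 0.135 to 0.192) and Olfr56 without RV 0 h replicates 1, 2 and 3 and RV 8 h replicate 3 (adjusted p from 0.165 to 0.231). Olfr56 shares 111 exon bases with Ifi47 on the same strand, and Cxcl11 1582 with Gm2673 on the other.

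Ch25h, which makes an oxysterol that blocks viral entry, has 2.25, 1.89 and 2.08 CPM at 0 h and 66.8, 35.4 and 52.9 CPM at 8 h, without overlap, and rose by 4.64 (SE 0.34, adjusted p = 5.43e-04). Batf, a factor of immune cells, and Trim30c, of a family that restrains inflammation, rose by 3.75 and 5.42 (adjusted p = 5.43e-04 and 4.41e-04). Mmp13, a collagenase, has 3.9, 2.85 and 1.89 and 73.8, 65.4 and 38 CPM, lowest of the stored hearts in replicate 3, and rose by 4.35 (adjusted p = 5.43e-04). Ralgds, an activator of Ral proteins, Ptprj, a receptor phosphatase, and Sh3pxd2b, a scaffold of matrix-digesting feet, rose by 2.59, 2.25 and 2.40 (adjusted p = 5.43e-04, 5.43e-04 and 7.07e-04). Olfr1033, annotated as an olfactory receptor, rose by 3.25 (adjusted p = 0.00397) and is among the 6 most abundant genes called higher, at 2326 TPM at 8 h.

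Sox4, a factor of progenitor states, has 102, 90.8 and 50.1 CPM at 0 h and 20.7, 18.2 and 24.3 CPM at 8 h, with every stored heart below 0.5 times any other, and fell by 1.94 (SE 0.27, adjusted p = 0.0034). Nynrin, a nuclease relative derived from a retrovirus, fell by 2.40 (adjusted p = 0.00493). Myct1 and Kctd12b, both of endothelium in mouse heart, fell by 2.11 and 2.17 (adjusted p = 0.01 and 0.00864). Flt3l, a growth factor of dendritic cells, has 4.04, 8.98 and 11.5 and 2.64, 1.44 and 1.75 CPM, lowest of its group in RV 0 h replicate 1, and fell by 2.06 (adjusted p = 0.0107), with 856 exon bases shared with Gm45713 on the same strand. Of the most abundant genes called lower, Selenbp1, a methanethiol oxidase, fell by 0.93 (adjusted p = 0.0438), lost without RV 0 h replicates 2 and 3 (adjusted p = 0.144 and 0.119).

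Hearts of 4 h share their controls with the comparison above, so their values are only set beside it. Against 4 h, no gene was called at 8 h in edgeR (0% of 14622), although 961 passed 0.05 before adjustment. A replicate block left 0 called with 2263 genes past that level, and with all 18 libraries in 1 model 1 was called, while DESeq2 called 46. The change from 0 h to 4 h has a median of 3.05 in the interferon-induced list, against 4.21 to 8 h, and of 1.41 against 1.76 in the immediate early list. RV 4 h replicate 3 stands apart in the former, whose summed TPM at 4 h are 927, 797 and 5248, and it is low in Y-linked transcripts too (68.8, 68.7 and 2.83 TPM). Il6 has 164, 70.4 and 64.8 CPM at 4 h, between the other groups, with log2 fold changes of 4.02 to 4 h and 5.68 to 8 h. The rule named the genes that follow for a small p at 8 h against 4 h, where edgeR called none of them. Zfp46, a zinc finger protein, has 39.8, 43.2 and 48.5 CPM at 0 h, 37.8, 46.8 and 50.4 CPM at 4 h and 99.6, 102 and 159 CPM at 8 h. Its groups at 0 h and 4 h are alike, with log2 fold changes of 0.04 to 4 h and 1.45 to 8 h (SE 0.22, adjusted p = 0.00433 at 8 h against 0 h). Tsku, a secreted inhibitor of growth factors, and Anxa1, which ends inflammation, have 0.66 and 0.71 to 4 h and 1.94 and 1.93 to 8 h (adjusted p = 0.00201 and 0.00213 at 8 h against 0 h). Kif11, a motor of the spindle, has 0.693, 0.829 and 0.99, 4.07, 5.81 and 3.78 and 1.93, 2.14 and 1.56 CPM at 0, 4 and 8 h, highest at 4 h, and rose by 1.16 to 8 h (adjusted p = 0.0228). Rfx2, a factor of cilia, and Dusp10, a phosphatase of stress kinases, follow the same order with 2.45 and 1.86 to 4 h and 1.08 and 1.18 to 8 h (adjusted p = 0.0328 and 0.00408).

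The LV of the same storage times was tested against the RV by the difference of their changes. In edgeR with all 18 libraries 0 genes were called different, 628 had an unadjusted p under 0.05, and DESeq2 called 2. When LV and RV of the same number and storage time were taken as 1 heart, 712 of 15093 genes (4.72%) were called with a positive difference, RV minus LV, and 150 (0.994%) with a negative one. The labels do not say that the numbers match hearts. With that block, 29 of 30 immediate early genes were called with a positive difference, and the list's median is 1.76 against 0.34 in LV. Nr4a2 rose by 1.28 in RV and has -0.89 in LV (adjusted p of the difference 0.00131), and its RV call is lost without RV 0 h replicate 2 (adjusted p = 0.112). Fosb has 2.68 and 1.16 (adjusted p of the difference 0.00632), and Rnd3, a small GTPase of the cell skeleton, 1.82 and 0.12 (adjusted p of the difference 0.0078). Of the interferon-induced genes 22 of 45 were called with a positive difference and none with a negative one, with medians of 4.21 and 3.55. Cxcl10 has 6.51 in RV and 5.86 in LV (adjusted p of the difference 0.044). Of 19 clock genes 2 were called with a positive difference, Nfil3 with 2.54 and 1.21 (adjusted p of the difference 0.0118) and Bhlhe40 with 0.91 and -0.18 (adjusted p of the difference 0.0913).

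Promoters of 10939 of the 14622 tested genes could be read, each as the 250 bases before the annotated start, and 10 motifs were searched on both strands. A match is a description of sequence and shows neither binding nor use. The interferon response motif GAAANNGAA lies in 7.71% of all promoters, 11.7% of those of genes called higher, 15 of 35 in the interferon-induced list and 9 of 9 in the GTPase list. The STAT motif TTCNNNGAA lies in 7.31%, 9.24% and, for those lists, 5 of 35 and 6 of 9. The NF-kB motif GGANTTTCC lies in 1.34% of all promoters, 2.89% of genes called higher and 0.69% of those called lower, and in 5 of 17 of the NF-kB list and 3 of 13 chemokines. AP-1 motifs (TGANTCA) lie in 5.84% of all, 9.17% of genes called higher and 1 of 24 immediate early genes, and cAMP response motifs (TGACGTCA) in 2.88%, 3.95% and 4 of 24. Heat shock motifs (GAANNTTC) lie in 6.16% of all promoters and 7 of 17 chaperone genes, and antioxidant motifs (TGACNNNGC) in 13.6% and 7 of 16 of the NRF2 list. E-boxes (CACGTG) lie in 9.51% of all and 5 of 16 clock genes, D-boxes (TTANGTAA) in 1.73% and 1 of 16, and metal response motifs (TGCNCNC) in 56.3% of all and 8 of 16 of the NRF2 list.

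Windows around matches in genes named here, read from RefSeq GRCm38.p6, show what such a match looks like, with the motif in capitals and each sequence on the strand of its gene. They are, for Cxcl10, chr5:92349074-92349122 (minus strand, interferon response) and chr5:92349019-92349067 (minus strand, NF-kB on the other strand). For Gbp2 the window is chr3:142620585-142620633 (plus strand, interferon response on the other strand) and for Il6 chr5:30013051-30013099 (plus strand, NF-kB). The Gbp2 match lies before the start used in the search, 142620663, but inside the GENCODE gene, which starts at 142620602. Hspa1b has chr17:34959315-34959362 (minus strand, heat shock) and Per3 chr4:151044843-151044890 (minus strand, D-box).
Cxcl10 interferon response: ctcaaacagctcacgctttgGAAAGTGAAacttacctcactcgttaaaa
Cxcl10 NF-kB: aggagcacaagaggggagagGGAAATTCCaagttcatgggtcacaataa
Gbp2 interferon response: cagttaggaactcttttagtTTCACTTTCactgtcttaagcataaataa
Il6 NF-kB: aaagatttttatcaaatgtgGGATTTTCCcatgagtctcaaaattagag
Hspa1b heat shock: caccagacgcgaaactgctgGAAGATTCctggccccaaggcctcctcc
Per3 D-box: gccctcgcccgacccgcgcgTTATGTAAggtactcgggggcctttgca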

How the data were processed

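Whole-ventricle RNA was read in 18 libraries, and the 9 of RV entered the fit. Per the labels and the submitters' processing notes, the authors quantified reads with kallisto and deposited estimated counts for each transcript. The authors also deposited TPM and, per transcript, its length and effective length, which were used for levels and for length offsets. Here estimated counts were summed to genes by the GENCODE release M21 annotation (GRCm38). Of 111462 transcripts, 110203 matched a gene and 1259 did not, which left 34989 genes. Sums were rounded to whole counts before every fit. Depth per library is given in the report, and 1 count is 1 read that kallisto assigned.

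The comparison was tested with edgeR 4.0.16 (quasi-likelihood, TMM factors, filterByExpr with default settings) in R 4.3.3, with Benjamini-Hochberg adjustment over all 14622 tested genes. A call needs an adjusted p below 0.1 and a change of more than 1.5-fold. A standard error is the log2 fold change divided by the root of its F statistic. Sums over a library were compared by an exact two-sided permutation test. Alternatives, whose effects the closing section gives, were the 6 libraries or all 18, a replicate block, RLE and upper-quartile factors, other filters and thresholds, length offsets, DESeq2 1.42.0, limma-voom 3.58.1, no mitochondrial genes, a covariate of Y-linked expression and each library left out. RLE and upper-quartile counts for gene lists were chosen after seeing the data. Python 3.11.15, pandas 2.3.3, numpy 2.4.6, scipy 1.17.1 and matplotlib 3.10.9 made tables and figures. The fit was tested on simulated data, and no value from that test is given here. Length and strand of reads, reads themselves and isoforms were not used here.

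The replicate numbers of the labels were checked for pairing. Deviations from group means correlate at 0.11 to 0.49 between RV libraries with the same number and at -0.518 to 0.243 between other numbers. These ranges overlap and come from the same data, so they do not settle the pairing. The numbers were taken as pairs only in the block, an alternative to the main fit. Whether LV and RV of a number come from 1 heart was not checked.

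The 49 gene lists and their members, of which 16 lists hold cell type markers, were chosen with earlier results of these data known. Genes were named by a rule that takes more genes than the report prints (Gbp8, Nlrc5, Palm and Idh2 are among those left out). Among called genes whose 8 h libraries all lie on 1 side of all 0 h libraries, with a mean of at least 5 CPM in a group and a symbol not of the Gm or Rik form, it takes the 12 largest increases and decreases, the 10 smallest p and the 6 highest TPM in each direction. Without those conditions, from each list it takes the 4 called members with the largest change and the most abundant member, and all members of the study proteins, clock, Y-linked and cold lists. It adds the 6 smallest p in each direction for 8 h against 4 h and the 6 smallest for RV against LV. Chosen after their values were seen were Cxcl12, Meox2, Notch3, Ppard, Casp9, Cdkn2c, Sp100, Ifit1bl1, Psmb9, Psmb10, Psme1, Erap1, Ccl6, Il1a, Il1rl1, Il15, Cyld, Egr3, Nr4a1, Nr4a3, Amd1, Sms, Slc7a1, Cd68, Csf1r, Cx3cr1, Cd163 and C1qa, along with the overlapping genes and absent markers.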

Additional observations from a re-analysis of the deposited data

Results flagged for a closer look

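Each result here was flagged because the change from 0 h to 8 h differs between the ventricles by a test of the difference itself, with LV and RV of the same number taken as 1 heart. The labels do not state that pairing, and without it edgeR called no gene and DESeq2 called 2. Of 15093 genes, 712 were called with a positive log2 difference, RV minus LV, and 150 with a negative one. It is 2.11 for Ch25h, 1.69 for Rnd3, 2.19 for Nr4a2, 1.27 for Mum1l1, 1.61 for Gm48111 and -1.13 for Zfp580.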

How the results depend on the processing

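Of the 155 called genes whose log2 fold change the report gives, 114 kept their call under every alternative fit that gave them an adjusted p, and none changed direction. DESeq2 gave none for Cxcl9, Cxcl11, Mx1, Serpina3g and Slfn4, and with length offsets none for Mx1, Serpina3g and Slfn4, while Ubd is below the filter of 1 CPM. Apart from left-out libraries and thresholds, calls ended in at least 1 fit for Ccr2, Cxcl12, Irx4, Kcnh2, Kcnip2, Myom2, Notch3, mt-Co3, Top2a, Casp1, Cxcl11, Gbp11, Olfr56 and Slfn4. In limma-voom they ended for Casp1, Ccr2, Cxcl11, Gbp11, Olfr56 and Slfn4. The count of genes called higher, 1896, stayed within 1.5 times except when a library was left out, which gave 1025 to 2625. The count called lower, 769, was 414 with the 6 libraries of 0 h and 8 h alone, 1288 with the replicate block, 1530 with upper-quartile factors, 379 at an adjusted p under 0.05 and 250 at a fold change over 2. With each library left out it ran from 238 to 2018. Against 4 h, 0 genes were called, 1 with all 18 libraries and 46 with DESeq2. For RV against LV 0 were called, 862 with LV and RV of a number as 1 heart and 2 with DESeq2. The replicate block changed no call of these genes beyond those given in the report. The cause of these differences was not tested. The marker counts called higher that moved over 1.5 times in DESeq2 were 3 of pericytes and smooth muscle, 3 of neutrophils, 3 of erythroid cells and platelets, 2 of fibroblasts, 2 of adipocytes and 1 each of endothelium, endocardium, epicardium and T and natural killer cells. Of 980 list counts, 789 stayed within 1.5 times.

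With 3 libraries in a group, a gene that differs in 1 library moves the whole result, and 951 of 1896 increases and 170 of 769 decreases were called without any 1 of them. Libraries of 24832857 to 32446175 counts leave genes below the filter untested. Sex, time of day and heart of origin are not in the labels. No alternative failed to run.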

Other observations

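Some gene families are outside the lists of the report, and the 2 named here were chosen after their values were seen. Genes with the Zfp symbol encode zinc finger proteins, most of them repressors that bind DNA. Of 331 tested, 20 were called higher and 52 lower, against 13% and 5.26% of all genes, with a median log2 fold change of -0.40 against -0.07. Members called lower were 10 and 13 without RV 0 h replicates 2 and 3 and 24, 92 and 18 without RV 8 h replicates 1, 2 and 3, 84 with the replicate block and 90 with upper-quartile factors. Proteins of the cytosolic ribosome are made from 84 tested genes, of which 8 were called higher and 0 lower, against 13% and 5.26% of all genes. Their median is 0.47, and 82 of the 84 lie above 0, as do 6581 of all 14622 tested genes. Members called higher were 3, 0 and 0 without RV 0 h replicates 1, 2 and 3 and 2, 49 and 2 without RV 8 h replicates 1, 2 and 3, 20 in DESeq2 and 4 with upper-quartile factors.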
